A study of Mus musculus with 20 samples.

Results

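Pancreas of mice lacking the microRNA miR146a (KO) was compared with pancreas of wild-type (WT) mice after injection of phosphate-buffered saline (PBS), the control arm of a cerulein pancreatitis experiment. The members are the 10 libraries whose titles name PBS, 5 KO and 5 WT, of 20 samples in the series, of which 19 hold counts. Per the labels, the mice were littermates 6 to 8 weeks old, each given 7 hourly intraperitoneal injections of 50 µl PBS and culled 1 h after the last. Cerulein mice of the same age, whose libraries are also used below, were given 7 injections of 50 µg/kg cerulein and culled 1 h after the last. The sources used here do not give the knockout allele, the sex or the strain, and the labels do not tie a replicate number to a litter, cage or day. Each library was made from polyA-selected RNA of whole snap-frozen pancreas. In such bulk tissue, fewer cells of a type and less RNA per cell cannot be told apart.

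MicroRNAs guide a silencing complex to messenger RNAs that pair with their seed, the bases near the 5′ end, and pairing lowers the stability and translation of the target. miR-146a is induced by NF-kB and restrains the same pathway, with the signalling adaptors TRAF6 and IRAK1 as its best known targets, so its loss is known for excess inflammatory signalling. In the pancreas, acinar cells devote much of their messenger RNA to secreted digestive enzymes, and a few transcripts therefore fill much of a pancreas library.

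Of the mature products of the knocked-out gene, the 5p and 3p arms, the 5p arm is shown so that its seed can be read. The sequence is from RefSeq on GRCm38.p6, bases 2 to 8 (the seed) are in capitals, and the gene (Mir146) lies on the minus strand, with this arm at chr11:43374435-43374456.
mmu-miR-146a-5p: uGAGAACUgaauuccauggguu
In the GENCODE annotation of that build, this interval lies within the single exon of the miRNA gene and overlaps no other annotated gene. The counts were made on GRCm39, so the position serves only to identify the locus. Mature microRNAs lack a polyA tail, and rows of the deposited table carry no gene identifiers. The level of miR146a, of its targets, of pancreas and immune cell markers and of every other named gene was therefore not analysed here. Genes are written as the number of their row, counted from 1 below the header.

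Depth ran from 893520 to 8813134 counts in WT and from 806076 to 36347215 in KO. The 4 libraries under 2000000 counts were replicates 1 and 2 of each genotype, so shallow libraries were balanced between the genotypes. The difference in log10 totals, KO minus WT, was 0.211 (exact two-sided permutation p = 0.595). In 7 of 10 libraries more rows held some count from 5 up than held exactly 2 counts. In WT replicate 1, 210 rows held exactly 2 counts and 321 held exactly 7, and in KO replicate 1 the numbers were 219 and 335. WT replicates 3 and 5 and KO replicate 4 did not show this, with 201, 221 and 460 rows at 2 counts and 141, 132 and 432 at their most frequent value from 5 up. The most frequent value from 5 up was 6 to 18 in the WT libraries and 5 to 8 in the KO libraries. Whether reads were copied from the same molecules was not tested.

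When each library was reduced by calculation to the total of the shallowest, 806076 counts, WT libraries held a count in 12437.9, 12434, 12755.1, 14818.4 and 15193.7 rows for replicates 1 to 5. KO libraries held one in 11388, 12342.6, 13623.3, 13424.5 and 14234.6 rows. The ranges overlapped, and the means, 13002.6 ± 1131.75 in KO and 13527.8 ± 1362.16 in WT (SD, n = 5 each), did not differ beyond the spread (exact two-sided permutation p = 0.508).

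The share of a small group of very abundant transcripts differed widely between libraries of 1 genotype. There were 17 rows with a mean share over 1% of counts across the 10 libraries, the largest at 5.74%. Together they held 18.0%, 36.0%, 54.6%, 4.95% and 21.5% of counts in WT replicates 1 to 5. In KO they held 18.6%, 44.3%, 51.2%, 59.1% and 51.4%. Of the KO libraries, 4 lay between 44.3% and 59.1% with replicate 1 far below, whereas the WT libraries were spread from below the lowest KO library into the upper part of the KO range. The mean was 17.9 percentage points higher in KO, 44.9% ± 15.6 against 27.0% ± 19.0 (SD, n = 5 each), a difference within the spread of the libraries (exact two-sided permutation p = 0.135, adjusted over the 3 library measures 0.405). The smallest p that 5 against 5 can give is 0.00794. Without the 4 shallow libraries the difference was 26.9 points, with 3 against 3 libraries (exact permutation p = 0.3), and leaving out WT replicate 4 gave 12.4 points (exact permutation p = 0.262). Leaving out WT replicate 3, the WT library richest in these rows, gave 24.8 points (unadjusted exact permutation p = 0.0476). Removing the highest WT library widens the difference by construction. No other removal of a single library gave a p under 0.05 (exact permutation p from 0.0635 to 0.262).

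**Figure D1:**
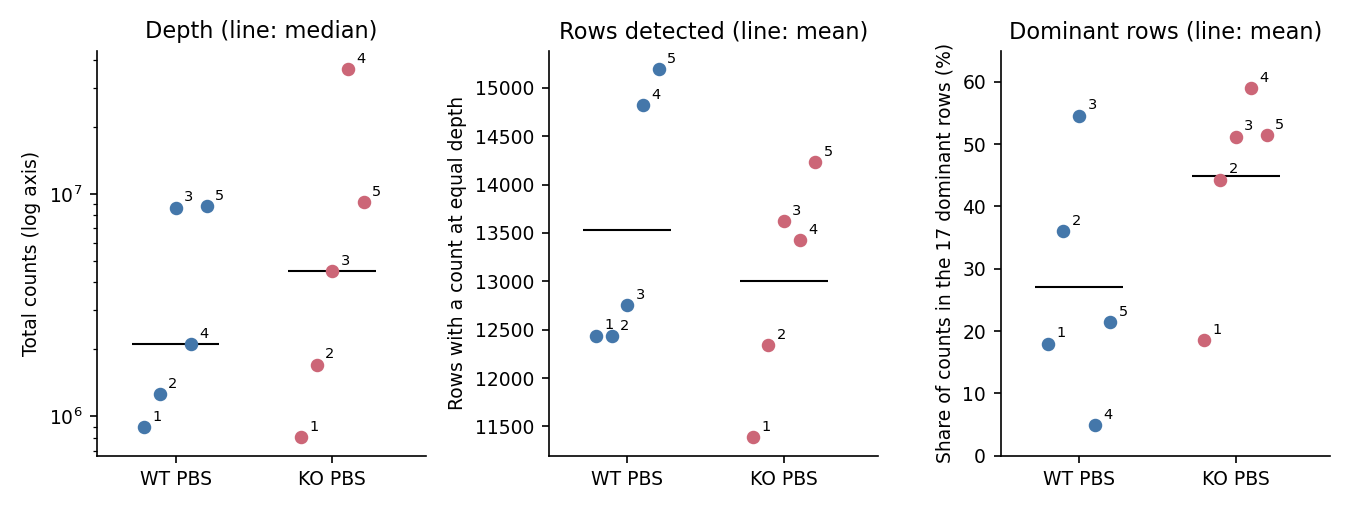
Total counts (log axis), rows with a count at an equal depth of 806076 counts, and the percentage of counts in the 17 dominant rows, for each PBS library; numbers are replicates, lines are medians (left) or means. The genotypes overlap in all 3 panels, and WT replicate 4 has the lowest dominant share, 4.95%.

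Row by row, 14 of these 17 transcripts had a higher fitted level in KO and 3 a lower one. Their median log2 difference was 1.42, against -0.0015 over all tested rows, with a range from -0.65 to 2.06. None was called with edgeR (adjusted p from 0.600 to 0.862, and 0 of 17 at an unadjusted p under 0.05), and the calls were also 0 with DESeq2 and limma-voom. At an unadjusted p under 0.05 the number was 8 with DESeq2 and 16 with limma-voom. Without WT replicate 3 the median log2 difference was 3.27, still with 0 called. There 14 of 17 had an unadjusted p under 0.05 in edgeR, against 13.9% of all tested rows. Without WT replicate 4 the median was 1.10, and without the 4 shallow libraries 1.39.

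KO libraries were slightly more alike than libraries of different genotypes, and WT libraries were not. Across the 15831 tested rows, the mean Spearman correlation of log2(CPM + 1), where CPM is a row's count divided by the scaled library size and multiplied by 1000000, was 0.772 over the 10 WT pairs, 0.802 over the 10 KO pairs and 0.785 over the 25 pairs of a KO with a WT library. Pairs across genotypes were thus about as alike as pairs within WT. Over these rows 6 of 10 libraries were closest to a library of their own genotype. WT replicate 3 was closest to KO replicate 4 (0.891), and WT replicates 2 and 5 were both closest to KO replicate 5 (0.835 and 0.889). Over the 6189 rows with a mean of at least 20 CPM, 8 of 10 libraries were closest to their own genotype: WT replicate 2 was closest to WT replicate 5 (0.7096) and WT replicate 5 to WT replicate 1 (0.7406). The exceptions there were WT replicate 3, again closest to KO replicate 4 (0.820), and KO replicate 1, closest to WT replicate 5 (0.594). Over all tested rows, KO replicates 4 and 5 were the closest pair of all, at 0.924, so no library was a copy of another.

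WT replicate 4 and KO replicate 1 were the least like the rest. Their mean correlations with the other libraries were 0.731 and 0.713, where the other 8 lay between 0.769 and 0.842. Without the 4 shallow libraries the means became 0.769 within WT, 0.896 within KO and 0.821 across genotypes, over 3, 3 and 9 pairs. Without WT replicate 4 alone, the mean within WT was 0.796 over 6 pairs.

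The same libraries stood out among the 6189 rows with a mean of at least 20 CPM over the PBS libraries, where shallow depth matters less. WT replicate 4 was the highest of the 10 libraries in 17.8% of these rows and the lowest in 16.4%. KO replicate 1 was the highest in 14.9% and the lowest in 20.3%. KO replicate 4, the deepest library, was the highest in 20.6% but the lowest in only 4.98%. On the first principal component of these rows, which held 38.2% of the variance, KO replicate 1 scored 101 and WT replicate 4 scored 55.0. The other 4 KO libraries ranged from -49.9 to -2.71 and the other 4 WT libraries from -52.4 to 21.0. On the second component (19.7%), KO libraries scored from 4.92 to 65.6 and WT libraries from -64.3 to 13.7, with WT replicate 3 alone inside the KO range.

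**Figure D2:**
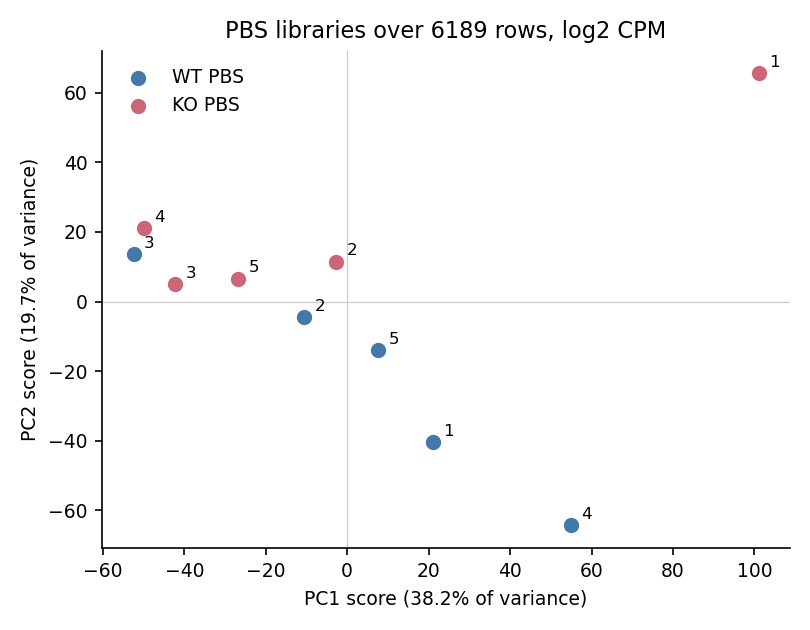
Scores of the 10 PBS libraries on the first 2 principal components of log2 CPM over 6189 rows; numbers are replicates and colours are genotypes. KO replicate 1 (101) and WT replicate 4 (55.0) lie furthest right, and WT replicate 3 lies among the KO libraries.

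Spread within the PBS groups was large in both genotypes. The median SD of log2 CPM over the 6189 better counted rows was 0.64 in WT and 0.60 in KO after PBS, against 0.31 and 0.38 in the cerulein groups. The joint model, fitted to all 4 groups, gives each row 1 estimate of spread for all groups. Its p-values thus rest partly on the narrower cerulein groups. A model of the 10 PBS libraries alone is therefore given beside it below. Over the 11777 rows of that model the median SE was 0.559, against 0.478 for the same rows in the joint model.

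Of 15831 rows tested, 27 of them with no count in any PBS library, 2 were called between KO and WT after PBS, 1 higher and 1 lower in KO (edgeR quasi-likelihood test, Benjamini-Hochberg adjusted p under 0.05). That is 0.0126% of rows tested, or 0.00632% in each direction. An unadjusted p under 0.05 was seen in 8.85% of rows (1401, of which 829 were higher and 572 lower in KO). With the PBS libraries alone, 1 of 11777 rows was called (0.00849%) and 4.06% had an unadjusted p under 0.05. DESeq2 called 85 rows (0.537%), 52 higher and 33 lower in KO, limma-voom called 0 (1496 at an unadjusted p under 0.05), and limma-voom with sample quality weights called 6 (0.0379%). Of the 85 DESeq2 rows, 37 had libraries that did not overlap between genotypes, 21 had no count in any library of 1 genotype, and in 24 a single library held over 50% of the CPM summed over the PBS libraries.

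The row with the smallest p was row 43726, higher in KO. Its level was 4.61, 1.94, 1.06, 2.25 and 2.61 CPM in WT replicates 1 to 5 and 284, 100, 56.5, 62.4 and 83.9 CPM in KO replicates 1 to 5. The groups were far apart: the lowest KO library was 12.3 times the highest WT library. WT levels rested on few reads, 7, 3, 6, 9 and 35 counts. The KO libraries held 349, 168, 195, 1132 and 579 counts, so the row was well counted in KO even in the shallow libraries. The log2 difference was 5.63 (SE 0.53, 95% interval 4.52 to 6.74), a 49.5-fold higher level in KO, in 5 of 5 libraries (edgeR adjusted p = 7.84e-06). Without the 4 shallow libraries it was 5.06 (edgeR adjusted p = 0.000309) and without WT replicate 4 it was 5.62 (edgeR adjusted p = 8.12e-05). With the PBS libraries alone the difference was 5.57 (edgeR adjusted p = 0.00208). Of the 28 alternatives, the 3 that lost the call were limma-voom (adjusted p = 0.0742), limma-voom with sample quality weights (adjusted p = 0.117) and edgeR on the PBS libraries alone without the 4 shallow ones (adjusted p = 0.0594), with log2 differences of 5.10, 4.88 and 5.04. The adjusted p over all alternatives ran from 1.77e-24 to 0.117. KO replicate 1 carried the KO mean of 117 CPM ± 94.9 (SD, n = 5), which was 75.8 CPM without it, against 2.50 CPM ± 1.31 (SD, n = 5) in WT.

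Cerulein libraries give the scale of those levels. Row 43726 lay at 173, 72.5, 165 and 197 CPM in WT cerulein replicates 1, 3, 4 and 5 and between 63.7 and 178 CPM in the 5 KO cerulein libraries. Of the KO PBS libraries, replicates 2 and 5 lay inside the ranges of both cerulein groups, replicate 1 above both, and replicates 3 and 4 below both. The WT PBS libraries alone lay below 5 CPM. The KO minus WT difference after PBS exceeded that after cerulein by 6.19 on the log2 scale (SE 0.67, edgeR interaction adjusted p = 9.14e-05).

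The second row by the naming rule, row 43495, pointed the same way but did not pass the test. WT libraries lay at 7.24, 3.89, 7.05, 2.76 and 4.78 CPM and KO libraries at 39.1, 8.95, 24.9, 40.4 and 26.5 CPM. Rows were named only if the genotypes did not overlap, so the separation of each named row was set by that rule. In row 43495, KO replicate 2, with 15 counts, was only 1.24 times the highest WT library. The log2 difference was 2.45 (SE 0.43, edgeR adjusted p = 0.0571). Adjusted p over the alternatives ran from 2.54e-05 with DESeq2 to 1.00 with edgeR on the PBS libraries alone without WT replicate 4. Leaving out KO replicate 2 gave 2.67 (edgeR adjusted p = 0.00832) and leaving out WT replicate 3 gave 2.61 (edgeR adjusted p = 0.0340). After cerulein this row lay between 18.9 and 27.6 CPM in WT and between 8.76 and 21.3 CPM in KO.

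The row lower in KO was row 33693, which had 0 counts in all 5 KO PBS libraries. In WT it had 29, 3, 45, 260 and 310 counts in replicates 1 to 5, or 19.1, 1.94, 7.93, 65.1 and 23.1 CPM. Every WT library thus held the row, but replicate 2 did so with 3 counts, under the most frequent value of 7 in that library. The WT mean was 245-fold above a floor of 3 counts over the KO group, 0.0955 CPM. This bound covers counting error only and leaves out the spread between libraries. The fitted log2 difference was -11.0 (SE 1.57, 95% interval -14.3 to -7.68, edgeR adjusted p = 0.0136), and its size depends on the prior count. The interval reaches a smaller difference than the bound. Each p given with a bound tests the fitted difference, not the bound. WT replicate 4, which stands apart, had the highest level. Without it the WT mean fell from 23.5 CPM ± 24.8 (SD, n = 5) to 13.0 CPM, and the bound was 136-fold (edgeR adjusted p = 0.0217). Without KO replicate 4, which holds most KO counts, the bound was 104-fold (edgeR adjusted p = 0.106).

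The call for row 33693 was lost under more alternatives than that for row 43726. It was lost without the 4 shallow libraries (edgeR adjusted p = 0.0592, bound 253-fold) and without KO replicate 3, 4 or 5 (edgeR adjusted p = 0.0517, 0.106 and 0.0683). It was also lost when every library was thinned to the smallest total (edgeR adjusted p = 0.193). Dividing each library's counts by their most frequent value from 5 up brought the bound to 44.5-fold (edgeR adjusted p = 0.165). In the PBS libraries alone the row did not pass the filter on low counts, and without that filter it was called (edgeR adjusted p = 0.000408). It passed the filter but was not called in the PBS libraries alone without the 4 shallow ones (edgeR adjusted p = 0.946) or without WT replicate 4 (edgeR adjusted p = 1.00). Limma-voom did not call it either (adjusted p = 0.214, and 0.0553 with sample quality weights). The call was kept in 15 of the 25 alternatives that tested it, with adjusted p from 6.70e-11 to 1.00. The row was present in every KO library after cerulein. KO cerulein libraries lay at 31.6, 6.09, 2.36, 26.4 and 7.00 CPM, and WT cerulein libraries at 6.29 to 18.2 CPM.

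The second row in that direction, row 8807, did not pass the test. WT libraries lay at 193, 166, 121, 289 and 197 CPM and KO libraries at 112, 45.9, 31.9, 44.5 and 45.1 CPM. The groups came close without overlapping, since KO replicate 1 was at 112 CPM and WT replicate 3 at 121 CPM. The log2 difference was -1.81 (SE 0.36, 95% interval -2.56 to -1.06, edgeR adjusted p = 0.181). Leaving out KO replicate 1, which stands apart, gave -2.21 (edgeR adjusted p = 0.00986) and leaving out WT replicate 3 gave -1.94 (edgeR adjusted p = 0.0449). Leaving out WT replicate 4 gave -1.62 (edgeR adjusted p = 0.318), and the range over the alternatives was 0.000959 to 1.00. After cerulein, KO libraries lay between 75.9 and 224 CPM and WT libraries between 86.3 and 181 CPM, so these groups overlapped.

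**Figure D3:**
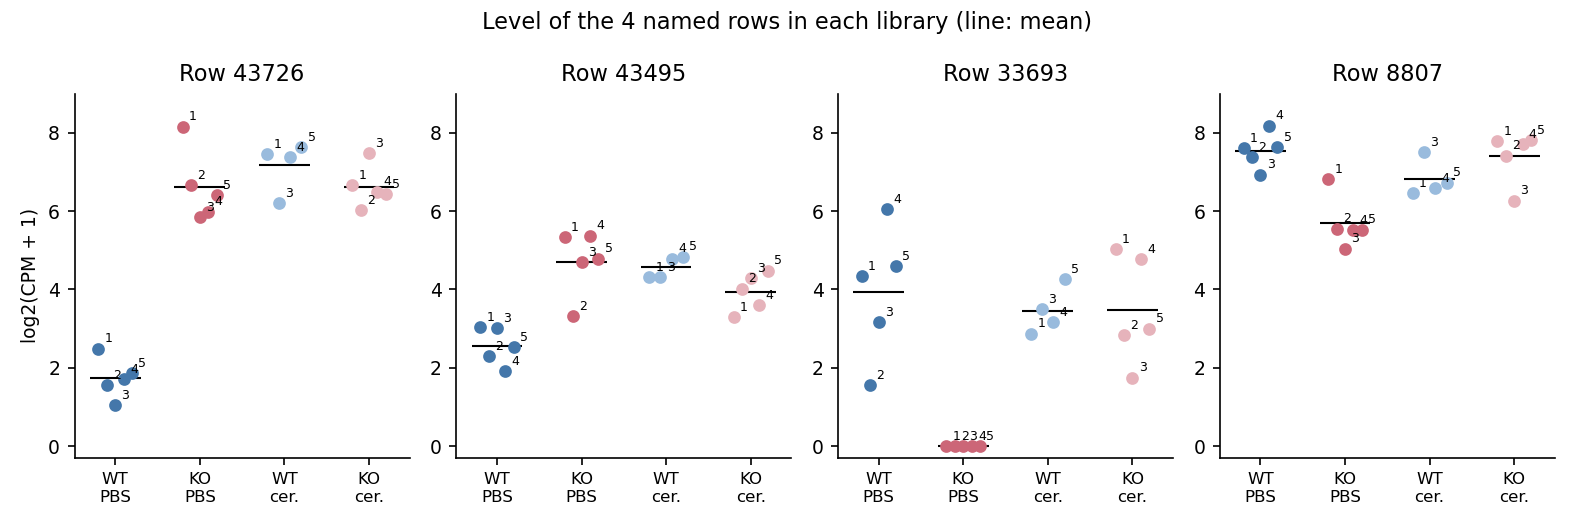
Level of 4 rows as log2(CPM + 1) in each library of the 4 groups; numbers are replicates and lines are means on that scale. In row 43726 the WT PBS libraries lie apart from all others, and in row 33693 the 5 KO PBS libraries are at 0.

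Full separation of the genotypes was rare among all rows, and near the rate that random labels give. With 5 against 5 libraries that rate is 0.00794 for both directions together, and no excess over it was tested. In 76 rows (0.480% of those tested) every KO library lay above every WT library, and in 66 rows (0.417%) every KO library lay below. The median log2 difference was 1.13 in the first set, with 46 of 76 over 2-fold, and -1.40 in the second, with 43 of 66. These sets were defined by the separation, so their sizes of difference are a description only. A gap of at least 2-fold between the nearest libraries was seen in 4 rows higher and 6 lower in KO, and a gap of at least 10-fold in 2 and 3 rows. Without WT replicate 4 the separated rows numbered 123 (0.777%) higher and 140 (0.884%) lower. Without the 4 shallow libraries, with 3 against 3 left, they numbered 1021 (6.45%) and 708 (4.47%). Fewer libraries separate more easily under any labels, so these counts cannot be set against those of all 10 libraries.

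Few rows were present in 1 genotype and absent from the other. Of the 57126 rows in the table, 8227 had a count in all 10 PBS libraries and 33780 in none. A count in all 5 WT and no KO library was seen in 3 rows, with WT means from 4.42 to 23.5 CPM, and row 33693 was the only one of them called. The reverse was seen in 1 row, at a KO mean of 2.95 CPM, which was not called (edgeR adjusted p = 0.196). Allowing 1 missing library, 7 rows were seen in WT alone and 32 in KO alone. The deepest library was KO replicate 4, and whether depth shaped these counts was not tested.

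**Figure D4:**
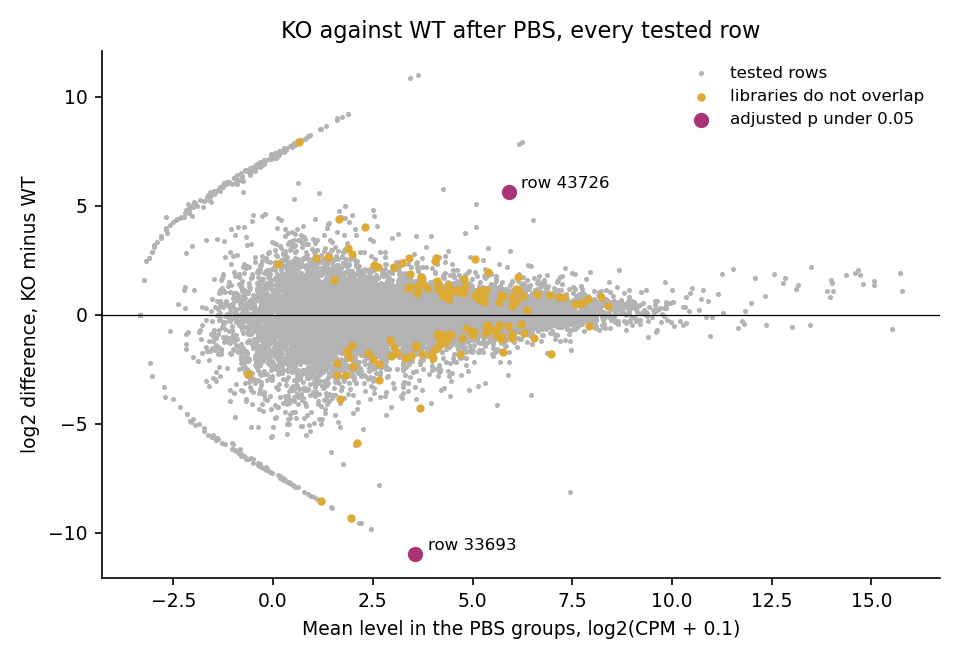
Fitted log2 difference, KO minus WT, against mean level in the PBS groups as log2(CPM + 0.1), for 15831 tested rows; rows whose libraries do not overlap and both called rows are coloured. The curved edges are rows with no count in 1 genotype, whose fitted difference depends on the prior count.

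Precision followed abundance. The median log2 difference over all rows was -0.0015 (interquartile range -0.48 to 0.48) with a median SE of 0.62. The 95% interval lay wholly within 2-fold in either direction for 17.6% of rows and within 4-fold for 53.5%. Among the 880 rows of at least 100 CPM these shares were 47.3% and 87.5%, with a median SE of 0.32. Among the 5309 rows of 20 to 100 CPM they were 40.4% and 91.3%, and among the 4990 rows of 5 to 20 CPM 4.51% and 55.7%. For the 3587 rows of 1 to 5 CPM they were 0% and 1.84%, so for nearly all of these the interval reached a 4-fold difference. An unadjusted p under 0.05 was most frequent, at 17.7%, in the 1065 rows under 1 CPM in the PBS groups, where 0 were called.

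Leaving out the 4 shallow libraries moved many fitted differences. Without them, the log2 difference moved by more than 1 in 13.7% of the 15768 rows tested both times. No other 4 libraries were left out for comparison, so depth and the number of libraries cannot be told apart here. Of 1396 rows with an unadjusted p under 0.05 before, 658 kept it in the same direction and 39 changed sign. The count of calls was 2 of 16488 rows (0.0121%), both higher in KO, with row 43726 among them and row 33693 not. Leaving out WT replicate 4 alone moved 4.68% of 15560 rows by more than 1, the largest share for any single PBS library. Of 1346 rows with an unadjusted p under 0.05, 908 kept it and 8 changed sign, and 3 of 15565 rows were called (0.0193%), rows 43726 and 33693 included. With both the 4 shallow libraries and WT replicate 4 left out, which leaves 2 WT and 3 KO libraries, 6 of 17738 rows were called (0.0338%), again with both rows among them, and 409 of 1400 rows kept an unadjusted p under 0.05. Over the 28 alternatives, 96 rows were called at least once, and only rows 43726 and 33693 were called in 14 or more.

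**Figure D5:**
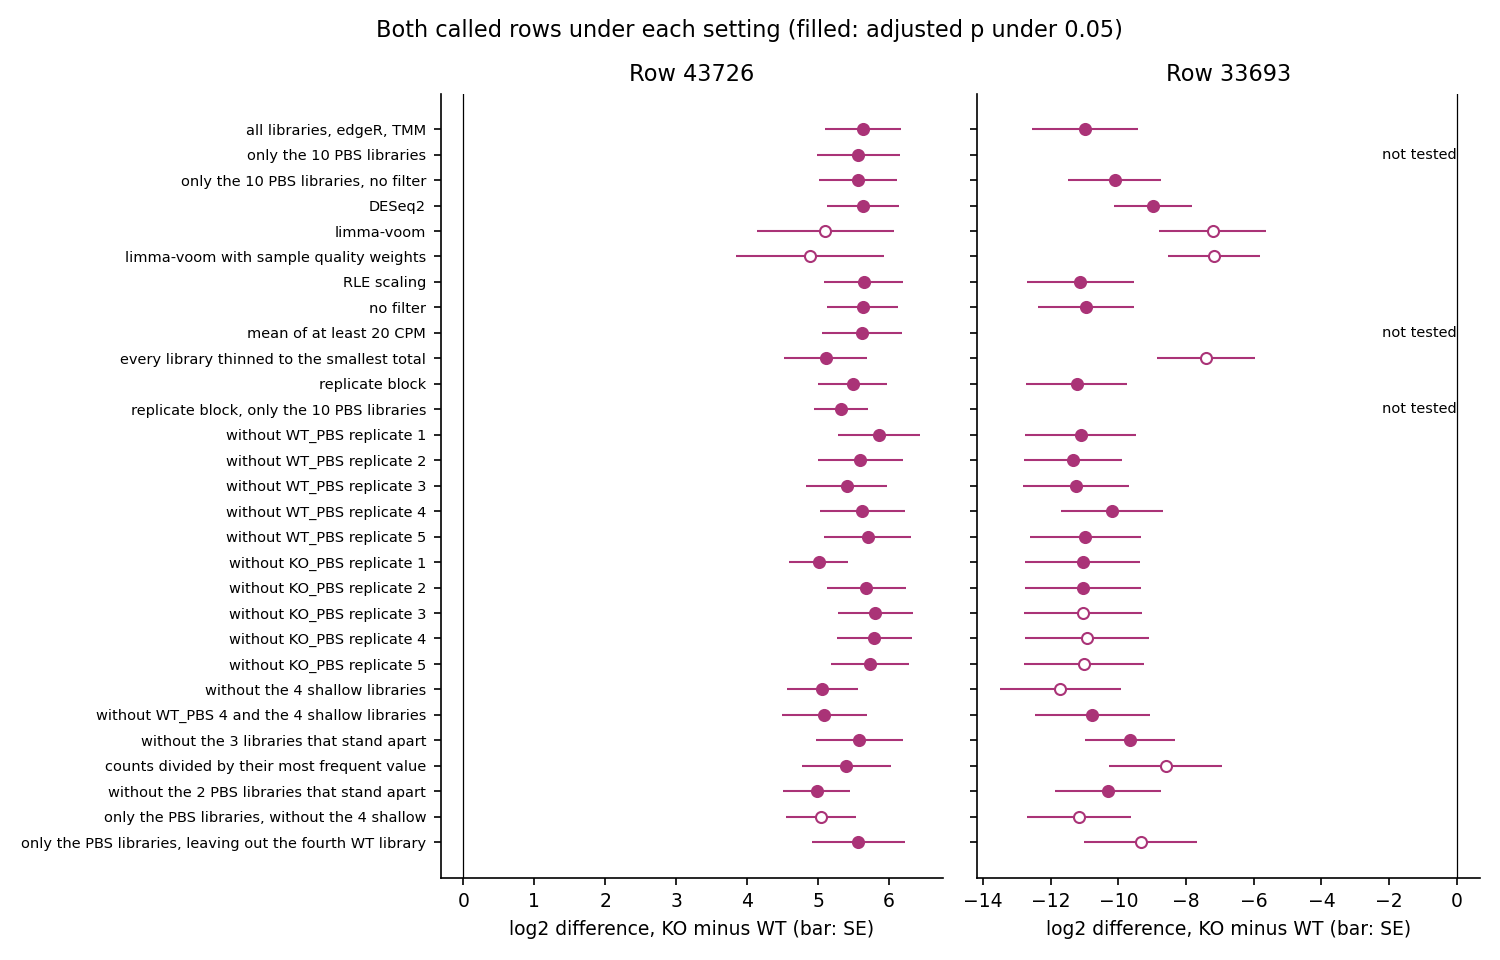
Fitted log2 difference, KO minus WT, with its SE for both called rows under each setting; filled points have an adjusted p under 0.05. Row 43726 stays between 4.88 and 5.86, and row 33693, whose size depends on the prior count because KO is at 0, has an unfilled point in 10 settings.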

How the data were processed

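The table of raw counts deposited by the authors has 57126 rows and a column for each library, named as in the sample descriptions. The tools fastp and STAR and the build GRCm39 are named in the submitters' processing notes. The sources used here do not give their versions, the counter, its strand setting or the annotation, so reads of paralogs or overlapping genes may be shared between rows. Per the labels' protocols, the libraries were stranded and polyA-selected, with paired reads of 98 bases. The column of 1 WT cerulein library held only 0 and was left out.

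Rows were kept by filterByExpr (10 counts, total of 15), scaled by TMM and fitted with edgeR 4.0.16 in R 4.3.3, by the quasi-likelihood test with 1 mean per group over 19 libraries. SE is the log2 difference divided by the square root of F. DESeq2 1.42.0 and limma 3.58.1 were alternatives. Single library measures were compared by exact two-sided permutation tests. The procedure was tested on simulated data with 1 spread per row for all 4 groups. That setting lacks the wider spread of the PBS groups, so it does not test the joint fit under it. Rows were named by rule, up to 2 per direction: called rows first, then rows not called by smallest p, all with a mean of at least 5 CPM in the higher genotype and no overlap. Members, rules and tests were chosen with earlier results of these data known. The labels do not say that libraries come from separate mice beyond their numbering, so p-values refer to these samples. Those of the joint fit rest on the spread within all 4 groups, not on the PBS libraries alone. The floor of 3 counts covers counting error only; the 95% intervals of log2 differences come from the fit over libraries. Correlations of same-numbered deviations were 0.120, 0.0455, 0.325, -0.288 and -0.192, with no reference to set them against. Whether libraries of the same replicate number share a litter, cage or day was not tested.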

Additional observations from a re-analysis of the deposited data

Results flagged for a closer look

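In 3 of 14 sets of 5 PBS values examined, a single library lay far from the rest of its group. A rate of about 1 in 20 by chance is for unrelated sets and cannot be set against this. The flagged values were an unlogged total and CPM levels, and KO replicate 1 held more than 1 of them. KO replicate 4 had 36347215 counts, against at most 9215620 in the other KO libraries. Row 43726 was at 284 CPM in KO replicate 1, against at most 100 CPM in the others. Row 8807 was at 112 CPM in the same library, against at most 45.9 CPM in the others. The genotype difference of row 43726 also differed between treatments: that after PBS exceeded that after cerulein by 6.19 on the log2 scale in the edgeR interaction test (adjusted p = 9.14e-05).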

How the results depend on the processing

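Depth and the spread within genotype limit this comparison; with 2 calls, any 1 added or lost moves the count by 1.5 times or more. With edgeR the count was 1 with the PBS libraries alone (5 without a filter), 1 at a mean of at least 20 CPM, 1 after thinning, 1 after each library's counts were divided by their mode from 5 up (chosen after seeing the data), and 1 to 12 without any single PBS library, the 12 being without WT replicate 3. It was 6 without WT replicate 4 and the 4 shallow libraries. With alternatives chosen after seeing the data it was 5 without WT replicate 4 and KO replicate 1, 0 with the PBS libraries alone without the 4 shallow ones (641 at an unadjusted p under 0.05), and 1 with them alone without WT replicate 4. DESeq2 gave 85, limma-voom 0 and limma-voom with quality weights 6. The replicate block gave 2 calls in the joint fit and 1 in the PBS libraries alone; 1 WT library of 5 correlated best with its own number.

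Of the 15831 rows tested, separated rows numbered 94 to 247 higher and 99 to 209 lower without any single library. They numbered 1021 and 708 (6.45% and 4.47%) without the 4 shallow libraries, and 1601 and 1348 also without WT replicate 4. Without WT replicate 4 and KO replicate 1 they numbered 325 and 223. With all 10 libraries, 44 and 30 of the 6189 rows of at least 20 CPM separated, against 76 and 66 of all 15831. Fewer libraries separate more easily. In the last case fewer rows were examined, so its smaller numbers are not a smaller share of rows. The difference in dominant share was 12.4 to 24.8 points without any single library. The difference in rows detected was -833 to -109 without any single library and turned to 201 without WT replicate 4 and KO replicate 1; the cause was not tested. No named row changed direction in any alternative. Rows were named only if the genotypes did not overlap, which leaves little room for such a change, so this is a description only.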
